A study of Homo sapiens with 16 samples.

Results

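Day 3 of activin treatment was compared with the undifferentiated state in H9, a widely used line of human embryonic stem cells. All columns of the deposited value table labelled as day 3 of activin (3 biological replicates) were set against all columns labelled as stem cells (4 biological replicates, day 0). These are 7 of the 14 biological samples and 8 of the 16 arrays in the series, because day 0 replicate 4 was hybridised on 2 technical arrays, which were averaged. The day 0 cells grew on mouse embryonic fibroblast feeders or on Matrigel in fibroblast-conditioned medium, with 8 ng/ml of basic FGF. The day 3 cells were kept in RPMI with activin A at 100 ng/ml and fetal bovine serum raised stepwise from 0% to 0.2% and 2%. All groups came from this 1 line at passages 40 to 50. Activin, basal medium, serum and loss of the feeder factors changed together, so their effects cannot be told apart. RNA was depleted of ribosomal RNA and measured on Human Exon 1.0 ST arrays. Values are log2(intensity + 1) throughout, called log2 intensity, and 18495 probe sets were tested. Whether replicates came from separate cultures is not stated beyond the word biological, so p-values measure the spread between the samples in the fit.

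Activin A binds the receptors also used by nodal, which phosphorylate SMAD2 and SMAD3. These enter the nucleus with SMAD4 and act on DNA together with partners such as FOXH1. In the embryo high nodal signalling carries epiblast cells through the anterior primitive streak, marked by EOMES, MIXL1 and GSC, into definitive endoderm, marked by SOX17, FOXA2, GATA4, GATA6 and CXCR4. Definitive endoderm gives rise to the lining of gut and airways, liver and pancreas. PRDM14 supports the pluripotent state, while PRDM1 is a repressor switched on in endoderm.

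The library labelled day 3 replicate 2 stood apart from both other day 3 samples. Its correlation over all probe sets was 0.825 and 0.833 with them, against 0.977 between replicates 1 and 3. With the day 0 samples it was 0.844 to 0.905, with day 1 0.846 to 0.919 and with day 5 0.817 to 0.909. Replicate 2 lay outside the range of the 4 day 0 samples for 37.1% of probe sets on the high side and 38.5% on the low side. The shares were 22.9% and 26.6% in replicate 1 and 22% and 25.8% in replicate 3. Of the 22 measured genes of the definitive endoderm list it lay inside the day 0 range in 16, above it in 3 (FOXA2, LGR5 and LHX1) and below it in 3 (SOX17, SHISA2 and VTN). The test against day 0 was therefore run with and without it. Leaving out a sample in view of the genes that are then tested is no neutral choice, so the calls without it describe replicates 1 and 3 and are no independent evidence for day 3 as a whole.

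Sequence upstream of the start is shown for MIXL1, PRDM1, CER1 and GDF3, which rose in replicates 1 and 3 and hold the FOXH1 motif there. The motif TGTGNATT was searched on both strands in the 250 bases before the RefSeq start of 27305 genes (build GRCh38.p14, the first start listed per gene). It was found in 2.83% of all these promoters. Among genes called at day 3 without replicate 2 it was in 10 of 248 promoters of genes that rose (4.03%) and 2 of 139 promoters of genes that fell (1.44%). These sets are the genes matched by symbol, of 328 that rose and 171 that fell. The 4 genes were chosen from the 10 because they stand in the endoderm, streak or nodal lists. Each line gives the 250 bases 5′ to 3′ on the gene's strand, and capitals mark the motif as read on that strand.
MIXL1: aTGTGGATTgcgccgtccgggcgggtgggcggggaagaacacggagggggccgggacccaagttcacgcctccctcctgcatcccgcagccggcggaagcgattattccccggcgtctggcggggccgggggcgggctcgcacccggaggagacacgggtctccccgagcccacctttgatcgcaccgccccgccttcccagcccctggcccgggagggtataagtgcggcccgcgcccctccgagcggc
PRDM1: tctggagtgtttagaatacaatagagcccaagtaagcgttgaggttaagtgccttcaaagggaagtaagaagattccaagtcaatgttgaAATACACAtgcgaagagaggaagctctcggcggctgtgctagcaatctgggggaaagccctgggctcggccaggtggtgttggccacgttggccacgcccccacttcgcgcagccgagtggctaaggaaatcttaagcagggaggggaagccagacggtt
CER1: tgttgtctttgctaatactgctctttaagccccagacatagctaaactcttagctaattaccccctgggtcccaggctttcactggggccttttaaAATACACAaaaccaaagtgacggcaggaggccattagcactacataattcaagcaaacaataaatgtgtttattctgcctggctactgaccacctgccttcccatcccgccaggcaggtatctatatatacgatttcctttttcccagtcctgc
GDF3: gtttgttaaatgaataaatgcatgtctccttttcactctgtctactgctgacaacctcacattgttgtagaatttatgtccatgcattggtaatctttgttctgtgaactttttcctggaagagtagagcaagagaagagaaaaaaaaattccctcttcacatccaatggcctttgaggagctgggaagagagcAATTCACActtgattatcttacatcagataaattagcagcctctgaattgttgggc
The MIXL1 stretch is chr1:226223414-226223663 on the plus strand, with the motif as written beginning 249 bases before the start. The PRDM1 stretch is chr6:106086086-106086335 on the plus strand, and its match is the reverse complement, 160 bases before the start. CER1 (chr9:14722734-14722983, minus strand) and GDF3 (chr12:7695776-7696025, minus strand) also hold the reverse complement, 154 and 56 bases before the start. Other motifs were searched in the same way. AGATAA, bound by GATA factors, was in 9.37% of all promoters, 6.85% of those that rose and 4.32% of those that fell. ACAAAG, bound by SOX factors, was in 13.7%, 6.85% and 10.1%, and the octamer ATGCAAAT, bound by POU5F1, in 1.66%, 0.806% and 3.6%. The T-box motif AGGTGTGA was in 0.787% of all promoters and in none of either set, and the SMAD palindrome GTCTAGAC was in 0.176%, 0.806% and 0%. Each motif was counted on its own, so matches of different motifs can share bases, and a match describes the letters only.

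The limma fits estimated the spread over the samples of all 4 groups, days 1 and 5 included. With all 7 samples compared in this way, 5 probe sets passed at an adjusted p under 0.05 (0.027% of those tested). At day 3, 1 of them was higher (0.00541%) and 4 were lower (0.0216%), while 1584 probe sets had an unadjusted p under 0.05. A fit of only the day 0 and day 3 samples, replicate 2 included, gave 0 calls. Without day 3 replicate 2, 590 passed (3.19%), 380 higher (2.05%) and 210 lower (1.14%), among them the 5. Of these, 368 rose and 190 fell at least 2-fold. Groups did not overlap for 9.82% of probe sets with all samples and for 32.3% without replicate 2. With 1 further sample left out the count of 590 fell to 353, 374, 416 and 489 without day 0 replicates 1 to 4, to 168 without day 3 replicate 1 and to 133 without day 3 replicate 3. In the last pair of fits a single day 3 sample is left and is assumed to vary like the other groups. In what follows "rose" and "fell" mean past this test without replicate 2 unless all samples are named. In that fit 6.94% of all probe sets were higher and 7.4% lower at an unadjusted p under 0.05, against 3.45% and 5.11% with all samples, and list counts at that level are read against these shares.

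The position of replicate 2 on the way from day 0 to replicates 1 and 3 was measured for each of the 590 probe sets. On this scale 0 is the day 0 mean and 1 the mean of replicates 1 and 3. Over the 380 rises its median position was -0.11 (quartiles -0.39 and 0.16). It lay above all 4 day 0 samples in 104 of them, inside their range in 112 and below all 4 in 164. The 104 are 27.4% of the rises, while replicate 2 lay above day 0 in 37.1% of all probe sets. Over the 210 falls its median position was 0.17 (quartiles -0.14 and 0.46). Replicate 2 lay below all 4 day 0 samples in 107 of them, inside their range in 53 and above all 4 in 50. The 107 are 51% of the falls, against 38.5% of all probe sets on that side. Replicate 2 had covered more than 0.6 of the way in 17 rises (4.47%) and 29 falls (13.8%). The share of all probe sets past 0.6 was not computed.

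**Figure D1:**
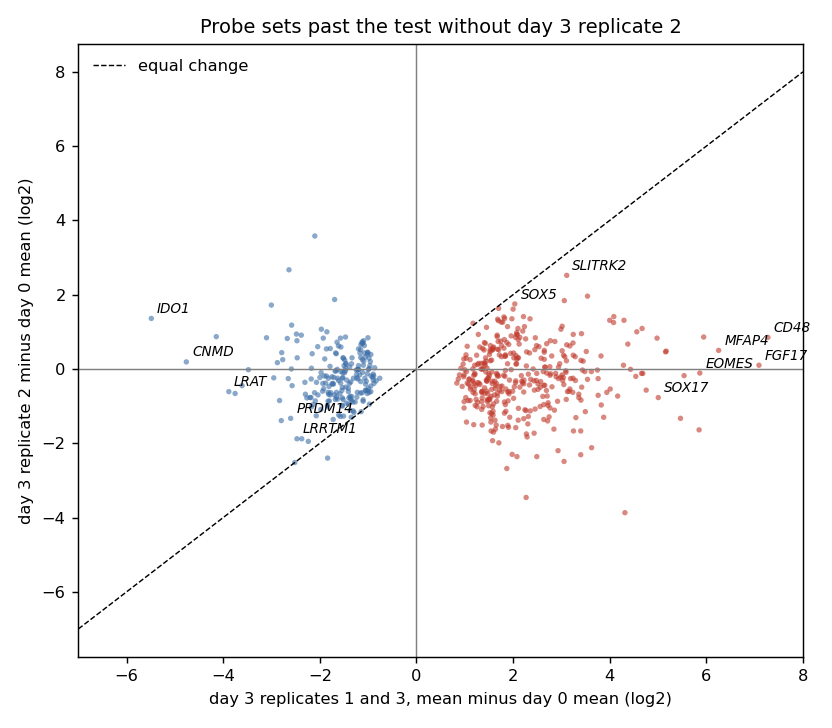
Each point is 1 of the 590 probe sets past limma without day 3 replicate 2, with its mean difference from day 0 in replicates 1 and 3 on the x axis and its difference in replicate 2 on the y axis (log2, red for rises, blue for falls). Points lie on both sides of the horizontal line at 0, with a median position of -0.11 for rises and 0.17 for falls, and few, such as SLITRK2 and LRRTM1, lie near the dashed line of equal change.

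The streak transcription factors were among the largest rises. EOMES, a T-box factor required for endoderm, stood at 7.01, 5.71, 7.28 and 6.46 in day 0 replicates 1 to 4, at 12.46 and 12.49 in day 3 replicates 1 and 3, with 6.51 in replicate 2. MIXL1, a homeobox factor of the streak, stood at 6.91, 6.51, 7.78 and 7.44 at day 0, at 12.71 and 11.95 in replicates 1 and 3, with 7.64 in replicate 2. GSC, the organizer homeobox factor, stood at 4.75, 4.82, 6.25 and 5.18, then at 10.53 and 11.05, with 5.07 in replicate 2. In all 3 genes replicates 1 and 3 lay far above day 0 and replicate 2 lay inside the day 0 range. The rises were 58.2-fold for EOMES, 36-fold for MIXL1 and 46.5-fold for GSC (limma adjusted p 0.000135, 0.000529 and 0.000231), and with all samples the adjusted p was 0.205 to 0.281. LHX1, a LIM homeobox factor of the anterior streak, stood at 6.23 to 6.99 at day 0, at 9.57 and 9.80 in replicates 1 and 3, with 7.01 in replicate 2, and rose by 3.04 ± 0.63 (SE, adjusted p 0.0221, and 0.338 with all samples). TBXT, the T-box factor of streak and mesoderm, did not follow them at day 3. It stood at 6.81 to 7.54 at day 0, at 7.49 and 7.46 in replicates 1 and 3, with 4.90 in replicate 2, a difference of 0.31 ± 0.43 without replicate 2 (adjusted p 0.872) and -0.55 with all samples. Of the 17 measured genes of the primitive streak list 6 rose and 0 fell (0 fell at an unadjusted p under 0.05), with a median difference of 1.30 against -0.03 over all probe sets. With all samples 0 passed, 6 were higher at an unadjusted p under 0.05 and the median was 0.67.

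The endoderm transcription factors showed the same split between samples. SOX17, an HMG-box factor that defines endoderm, stood at 6.45, 6.19, 6.86 and 5.64 at day 0, at 11.21 and 11.37 in day 3 replicates 1 and 3, with 5.52 in replicate 2, under the lowest day 0 sample. GATA6, a zinc finger factor of early endoderm, stood at 6.33, 5.71, 7.79 and 6.87 at day 0, at 12.34 and 12.90 in replicates 1 and 3, with 7.54 in replicate 2. GATA4, its paralog, stood at 5.83, 5.57, 6.36 and 5.68, then at 10.37 and 10.43, with 5.66 in replicate 2. These factors were 32.1-fold, 61.6-fold and 23.3-fold above day 0 in replicates 1 and 3 (adjusted p 0.000231, 0.00167 and 0.00138), and replicate 2 overlapped day 0 or lay under it. FOXA2, a forkhead factor that opens chromatin at endoderm genes, stood at 6.56 to 7.32 at day 0, at 9.68 and 10.14 in replicates 1 and 3, with 7.99 in replicate 2. It was a factor in which replicate 2 lay above all day 0 samples, at a position of 0.36, and it rose by 2.99 ± 0.50 (adjusted p 0.00621, and 0.178 with all samples). HHEX, a homeobox factor of anterior endoderm and liver bud, stood at 5.49 to 7.09 at day 0, at 9.15 and 10.02 in replicates 1 and 3, with 7.03 in replicate 2, and rose by 3.18 ± 0.50 (adjusted p 0.00447).

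The PRDM pair moved in opposite directions. PRDM1 stood at 5.38, 5.65, 5.50 and 6.48 at day 0, at 10.91 in both replicates 1 and 3 and at 6.21 in replicate 2. PRDM14 stood at 11.86, 11.57, 11.15 and 11.39 at day 0, at 8.91 and 8.86 in replicates 1 and 3, with 10.16 in replicate 2. For PRDM1 replicate 2 lay inside the day 0 range, while for PRDM14 it lay below all day 0 samples, about midway (position 0.51). PRDM1 rose 35.7-fold (adjusted p 0.000149, and 0.192 with all samples) and PRDM14 fell 6.09-fold (adjusted p 0.00635, and 0.161 with all samples). The difference for PRDM14 with all samples was -2.18 ± 0.44 and its groups did not overlap.

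**Figure D2:**
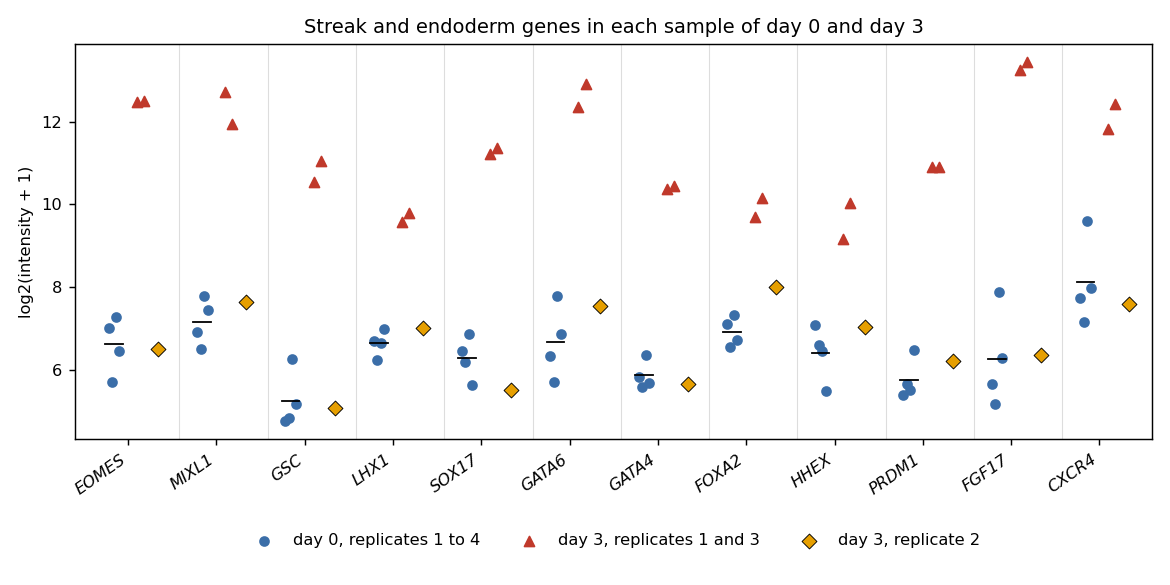
Log2 intensity (y axis) of 12 streak and endoderm genes in each sample, with circles for the 4 day 0 samples, a bar at their mean, triangles for day 3 replicates 1 and 3 and a diamond for day 3 replicate 2. Both triangles lie above all circles in each gene, and the diamond lies inside or below the range of the circles except in FOXA2 and, by a small margin, LHX1.

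As a group, 17 of the 22 measured genes of the definitive endoderm list rose, 0 fell (0 at an unadjusted p under 0.05) and 5 did not pass. Its median difference was 3.11, against -0.03 over all probe sets, and 2.34 with all samples, where 0 passed and 17 were higher at an unadjusted p under 0.05. The median over the list was 3.03 in replicate 1, 3.42 in replicate 3 and 0.08 in replicate 2. Members of this and the other lists were chosen with earlier results of these data known. Replicate 2 was left out in view of endoderm genes. The counts and medians without it therefore describe replicates 1 and 3 and are no independent support. KIT, the receptor of stem cell factor, rose by 2.22 ± 0.36 (adjusted p 0.00519), from 8.20 to 9.65 at day 0 to 11.08 and 11.57 in replicates 1 and 3, with 8.80 in replicate 2. CXCR4, the chemokine receptor used to sort definitive endoderm, stood at 7.73, 7.16, 9.60 and 7.98 at day 0, at 11.83 and 12.43 in replicates 1 and 3, with 7.58 in replicate 2, and rose by 4.01 ± 0.74 (adjusted p 0.0115). The members that did not pass were the forkhead genes FOXA1 (0.56) and FOXA3 (0.15), the head homeobox gene OTX2 (1.85), the WNT and FGF antagonist SHISA2 (1.52) and the plasma protein gene VTN (-0.18), with log2 differences without replicate 2 in parentheses. FOXA1, FOXA3, OTX2, SHISA2 and VTN were named after their values were seen. Of the endoderm and streak genes described so far, EOMES, MIXL1, GSC, SOX17, GATA6, GATA4 and PRDM1 kept their call in each of the 6 fits that left out 1 more sample. FOXA2, CXCR4 and PRDM14 lost it without day 3 replicate 1 or 3 (adjusted p up to 0.119, 0.17 and 0.101), HHEX and KIT without day 3 replicate 3 (0.109 and 0.114), and LHX1 in 5 of the 6 fits (up to 0.221).

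Among secreted factors the growth factor FGF17, which is made in the streak, had the largest rise. It stood at 5.66, 5.17, 7.87 and 6.29 at day 0, at 13.24 and 13.44 in day 3 replicates 1 and 3, with 6.35 in replicate 2, a rise of 7.09 ± 0.88 (adjusted p 0.00102). Replicate 2 lay within the day 0 range, and with all samples the difference was 4.76 ± 1.42 (adjusted p 0.28). FGF8, of the same subfamily, rose by 1.50 ± 0.29 (adjusted p 0.0156), from 6.71 to 7.80 at day 0 to 8.68 and 9.01, with 6.36 in replicate 2, below all day 0 samples. FGF19, a ligand that acts with klotho co-receptors, fell by 1.94 ± 0.40 (adjusted p 0.0221), from 8.35 to 8.83 at day 0 to 6.71 and 6.62, with 8.22 in replicate 2. DUSP4, a phosphatase that dampens ERK, rose by 1.69 ± 0.40 (adjusted p 0.0406), and here replicate 2 (8.91) lay beside replicates 1 and 3 (9.06 and 9.55) and above day 0 (7.08 to 8.14). In all, 3 of the 21 measured FGF signalling genes rose and 1 fell. FGF17 kept its call in the 6 further fits, FGF8 lost it without day 3 replicate 1 or 3 (up to 0.225), FGF19 in 4 of 6 (up to 0.213) and DUSP4 in 5 of 6 (up to 0.394).

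In the nodal pathway itself 2 of 21 measured genes rose and 0 fell (1 at an unadjusted p under 0.05). CER1, a secreted antagonist of nodal, BMP and WNT, stood at 10.80 to 12.47 at day 0, at 14.46 in both day 3 replicates 1 and 3 and at 11.46 in replicate 2. It rose by 2.88 ± 0.49 (adjusted p 0.00687, lost without day 3 replicate 1 or 3 at up to 0.101). GDF3, a ligand of the nodal receptors that is also a stem cell gene, stood at 8.90, 9.47, 10.27 and 8.70 at day 0, at 11.05 and 11.18 in replicates 1 and 3, with 10.59 in replicate 2. For GDF3 all 3 day 3 samples lay above day 0. It rose by 1.78 ± 0.43 (adjusted p 0.0445, and 0.178 with all samples), a call lost in 5 of the 6 further fits (up to 0.333) and in a fit of only day 0 and day 3 (0.0654). NODAL stood at 9.93 to 11.04 at day 0, at 10.70 and 10.95 in replicates 1 and 3, with 10.71 in replicate 2, a difference of 0.40 ± 0.31 (adjusted p 0.673). The differences of SMAD2 (0.36), SMAD4 (-0.05), SMAD7 (-0.11) and SKIL (-0.23), members of the same list, did not pass either, and these 4 were named after their values were seen.

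Of the list of WNT inhibitors and targets, 3 antagonists rose and a further one fell, and CER1 stands in other lists. DKK1, which blocks the LRP co-receptors, stood at 4.34, 3.63, 3.23 and 3.62 at day 0, at 9.70 and 7.68 in day 3 replicates 1 and 3, with 4.54 in replicate 2, and rose by 4.98 ± 0.63 (adjusted p 0.0012). NOTUM, an enzyme that removes the lipid of WNT ligands, stood at 3.04 to 5.44, then at 9.14 and 7.97, with 5.73 in replicate 2, and rose by 4.08 ± 0.66 (adjusted p 0.00551). FRZB, a decoy of the frizzled family, stood at 5.40 to 6.86, then at 9.41 and 9.09, with 6.43 in replicate 2, and rose by 2.96 ± 0.41 (adjusted p 0.00195). In DKK1 and NOTUM replicate 2 was slightly above all day 0 samples, and in FRZB it was inside their range. SFRP2, another frizzled-related decoy, went the other way and fell by 1.40 ± 0.30 (adjusted p 0.0254), from 11.54 to 12.26 at day 0 to 10.64 and 10.09, with 10.82 in replicate 2. Of the 17 measured WNT inhibitors and targets 3 rose and 1 fell. Of 26 ligands and receptors, LGR5, an R-spondin receptor, rose by 4.38 ± 0.55 (adjusted p 0.00116), from 4.42 to 5.02 at day 0 to 9.29 and 8.84, with 5.36 in replicate 2. Its paralog LGR4 fell by 1.16 ± 0.29 (adjusted p 0.05 after rounding, under the threshold), from 11.10 to 11.65 at day 0 to 10.08 and 10.32, with 10.70 in replicate 2. DKK1, FRZB and LGR5 kept their call in the 6 further fits. NOTUM lost it without day 3 replicate 1 (0.103), SFRP2 in 4 of 6 (up to 0.343) and LGR4 in all 6 (0.0615 to 0.383). The day 0 levels of DKK1, NOTUM and LGR5 were low, so the size of their folds depends on the added 1.

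A ligand, a binding protein and an inhibitor of the BMP pathway rose. BMP2, a ligand, stood at 8.31 to 9.74 at day 0, at 11.94 and 12.42 in replicates 1 and 3, with 8.26 in replicate 2. BMPER, a secreted BMP-binding protein, stood at 4.78 to 5.17, then at 7.83 and 7.54, with 4.60 in replicate 2. SMAD6, the inhibitory SMAD of the BMP branch, stood at 6.34 to 6.72, then at 8.58 and 9.26, with 5.32 in replicate 2. Replicate 2 was below every day 0 sample in all 3 genes. They rose by 3.10 ± 0.61 (adjusted p 0.0155), 2.64 ± 0.30 (0.000631) and 2.32 ± 0.29 (0.00108), 3 of the 20 measured members of the list, with 0 falling (1 at an unadjusted p under 0.05). BMP2 lost its call without day 3 replicate 1 or 3 (up to 0.205), and BMPER and SMAD6 kept theirs in the 6 further fits. In the retinoic acid list 2 of 16 rose and 0 fell (1 at an unadjusted p under 0.05). CYP26A1, the enzyme that clears retinoic acid, stood at 9.81 to 10.99 at day 0, at 12.95 and 13.21 in replicates 1 and 3, with 10.47 in replicate 2, a rise of 2.67 ± 0.44 (adjusted p 0.00634, lost without day 3 replicate 1 or 3 at up to 0.113). RXRG, a retinoid X receptor, rose by 3.29 ± 0.34 (adjusted p 0.000316), from 4.53 to 5.14 to 8.43 and 7.96, with 5.24 in replicate 2.

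Genes of the cell surface and matrix that stand in none of the lists were also among the 12 largest rises. CD48, an immunoglobulin-family surface protein best known from leukocytes, stood at 4.00, 3.63, 3.73 and 4.86 at day 0, at 11.52 and 11.13 in day 3 replicates 1 and 3, with 4.90 in replicate 2. MFAP4, a microfibril-associated matrix protein, stood at 7.00, 7.33, 7.04 and 6.35, then at 13.25 and 13.12, with 7.43 in replicate 2. COLEC12, a scavenger receptor with a collagen domain, stood at 5.95 to 6.70, then at 11.81 and 12.60, with 4.72 in replicate 2. CD48 and MFAP4 in replicate 2 were just above day 0, and COLEC12 was below it. Their rises were 7.27 ± 0.78 (adjusted p 0.000421), 6.26 ± 0.45 (8.31e-05) and 5.85 ± 0.54 (0.000215). BDKRB2, the bradykinin receptor B2, stood at 6.23 to 6.49 at day 0, at 11.96 and 11.69 in replicates 1 and 3, with 5.03 in replicate 2, a rise of 5.47 ± 0.57 (adjusted p 0.000316). These 4 genes kept their call in the 6 further fits.

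Among basement membrane and collagen genes 3 of 23 rose and 0 fell (1 at an unadjusted p under 0.05). The fibrillar collagen gene COL5A2 stood at 8.99, 9.15, 9.23 and 10.45 at day 0, at 12.78 and 12.74 in replicates 1 and 3, with 8.15 in replicate 2. COL6A1 stood at 9.44 to 9.74, then at 11.92 and 11.76, with 9.22 in replicate 2. COL4A6, a basement membrane collagen chain, stood at 7.41 to 7.47, then at 9.34 and 10.12, with 5.61 in replicate 2. Replicate 2 was lowest of all 7 samples in each. The rises of 3.30, 2.22 and 2.29 (adjusted p 0.0301, 0.0324 and 0.0339) were lost in 5, 6 and 6 of the 6 further fits (up to 0.23, 0.25 and 0.372). The list's median was 0.68 and 1.07 in replicates 1 and 3 and -1.39 in replicate 2. Of 20 cadherin and epithelial-mesenchymal genes 0 passed limma (3 higher and 1 lower at an unadjusted p under 0.05). CDH10, a cadherin outside that list, rose by 2.87 (adjusted p 0.000547), with 5.55 in replicate 2, above the day 0 range of 4.46 to 5.19, and kept its call in the 6 further fits. Within the list the largest differences, of fibronectin FN1 (1.51 ± 0.73, adjusted p 0.392) and N-cadherin CDH2 (1.45 ± 0.48, adjusted p 0.155), had replicates 1 and 3 above and replicate 2 below all day 0 samples.

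Some genes of the pluripotent state fell. Of 19 measured members of the pluripotency list 4 fell, 1 (GDF3) rose and 14 did not pass. Without replicate 2, 13 were lower and 1 higher at an unadjusted p under 0.05, against 7.4% and 6.94% of all probe sets. The median difference was -1.11 without replicate 2 and -0.92 with all samples, where 0 passed and 8 were lower at an unadjusted p under 0.05. The list's median was -1.16, -0.87 and -1.13 in day 3 replicates 1 to 3. DPPA4, a nuclear protein of pluripotent cells, stood at 12.99 to 13.20 at day 0, at 11.54 and 11.64 in day 3 replicates 1 and 3, with 13.40 in replicate 2. USP44, a deubiquitinase of H2B, stood at 11.69 to 12.29, then at 10.21 and 10.36, with 12.36 in replicate 2. In both genes replicate 2 was above every day 0 sample, unlike in PRDM14. DPPA4 fell by 1.52 ± 0.27 (adjusted p 0.00982) and USP44 fell by 1.66 ± 0.31 (adjusted p 0.012), and both lost the call without day 3 replicate 1 or 3 (up to 0.122 and 0.147). KLF4, a zinc finger factor of the naive state and an immediate early gene, fell by 1.11 ± 0.26 (adjusted p 0.0385), from 6.75 to 7.40 at day 0 to 5.88 and 5.83, with 6.09 in replicate 2, and lost the call in all 6 further fits (0.0528 to 0.307). LIN28A, an RNA-binding protein, stood at 13.24 to 13.89 at day 0 and at 13.47 and 13.77 in replicates 1 and 3, a difference of 0.07 ± 0.38 (adjusted p 0.978), with 12.02 in replicate 2. DNMT3B, the de novo DNA methyltransferase, stood at 13.04 to 13.43 at day 0 and at 11.74, 11.66 and 11.97 in day 3 replicates 1 to 3, so its groups did not overlap. Its difference did not pass without replicate 2 (-1.46 ± 0.53, adjusted p 0.205) or with all samples (-1.52 ± 0.46, adjusted p 0.292). The probe sets of POU5F1, NANOG and SOX2 carry several gene symbols and were not named.

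On the cell surface THY1, a glycoprotein of stem cells and fibroblasts, fell by 1.66 ± 0.24 (adjusted p 0.00271), from 11.65 to 12.04 at day 0 to 10.42 and 10.11, with 11.16 in replicate 2, and the call was lost without day 3 replicate 3 (0.0739). CD24, a mucin-like surface protein, fell by 1.00 ± 0.24 (adjusted p 0.0406), from 13.52 to 13.88 to 12.55 and 12.86, with 13.19 in replicate 2, and lost the call in all 6 further fits (0.0559 to 0.391). The other 12 of 14 measured surface genes did not pass. In both genes all 3 day 3 samples lay below all day 0 samples.

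The largest falls, over genes with 1 symbol and with the brightest probe set of each gene, were of varied roles. IDO1, which degrades tryptophan, stood at 10.42, 10.63, 9.41 and 8.56 at day 0, at 4.35 and 4.17 in day 3 replicates 1 and 3, with 11.11 in replicate 2. CNMD, a glycoprotein known from cartilage, stood at 11.26, 11.02, 10.34 and 9.16, then at 5.81 and 5.54, with 10.63 in replicate 2. TMT1A, a thiol methyltransferase, stood at 10.09, 10.05, 10.81 and 9.36, then at 5.64 and 6.23, with 10.95 in replicate 2. These genes were low in replicates 1 and 3 and within or above the day 0 range in replicate 2. They fell by 5.49 ± 0.82 (adjusted p 0.00338), 4.77 ± 0.55 (0.000711) and 4.14 ± 0.48 (0.000711). LRAT, which stores retinol as its ester, stood at 11.70, 11.62, 10.98 and 11.41 at day 0, at 7.79 and 7.30 in replicates 1 and 3, with 10.81 in replicate 2, and fell by 3.88 ± 0.31 (adjusted p 0.000135). CAMKV, a kinase-like protein of neurons, fell by 2.83 ± 0.30 (adjusted p 0.000421), with replicate 2 (8.18) just below the day 0 range of 8.33 to 9.53. IDO1 lost its call without day 3 replicate 3 (0.0612), and CNMD, TMT1A, LRAT and CAMKV kept theirs in the 6 further fits.

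The 12 largest falls also held PRDM14, given above, and 6 further genes. The secreted phospholipase gene PLA2G2A fell by 3.01 (adjusted p 0.0158), the maternal-effect gene NLRP7 fell by 2.88 (0.00265) and the STAT-interacting NMI fell by 2.79 (0.0148). The linker histone gene H1-1 fell by 2.77 (0.0237), the cytidine deaminase gene APOBEC3A fell by 2.68 (0.0213) and the TLR4 co-receptor gene LY96 fell by 2.66 (0.0334). In NLRP7 (8.32), NMI (7.81), H1-1 (11.23) and LY96 (3.97) the day 3 replicate 2 value was inside the day 0 range, and in PLA2G2A (9.31 against 6.66 to 8.31) and APOBEC3A (8.85 against 7.69 to 8.30) it was above it. NLRP7 lost its call without day 3 replicate 3 (0.0538), PLA2G2A and NMI without day 3 replicate 1 or 3 (up to 0.168 and 0.16), APOBEC3A in 4 of 6 fits (up to 0.264), and H1-1 and LY96 in 5 of 6 (up to 0.196 and 0.433). LY96 was dim at day 0 (3.23 to 5.11), and its fall shrank to -0.92 (adjusted p 0.114) with 16 added in place of 1.

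**Figure D3:**
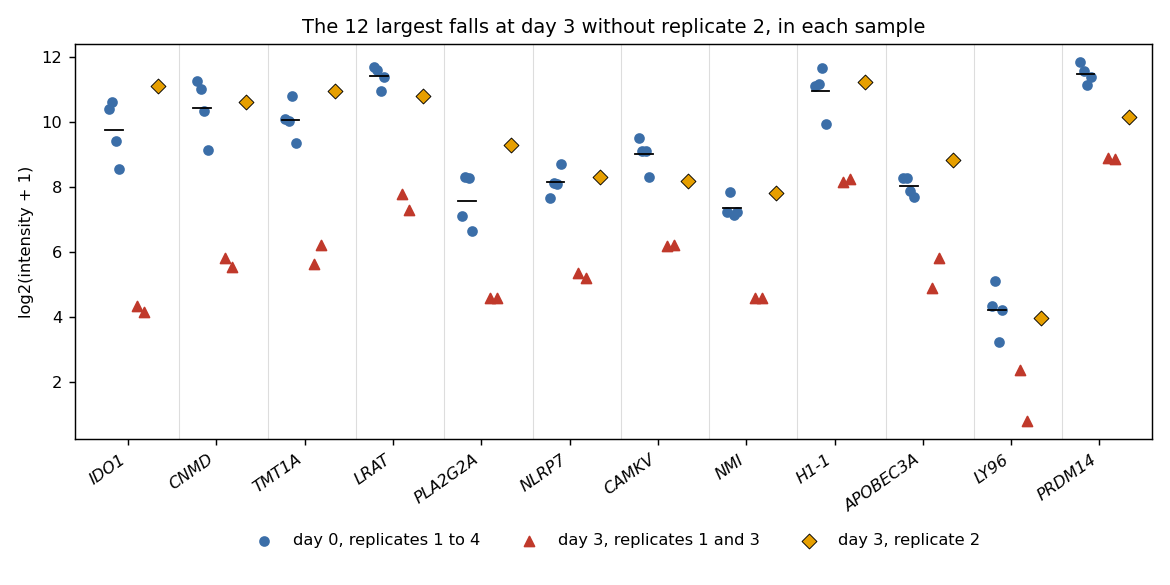
Log2 intensity (y axis) of the 12 largest falls in each sample, with circles for day 0, a bar at their mean, triangles for day 3 replicates 1 and 3 and a diamond for day 3 replicate 2. The triangles lie below all circles in each gene, while the diamond lies among or above the circles except in LRAT, CAMKV and PRDM14, where it lies below them.

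In the 5 genes called with all samples the 3 day 3 samples lay close together. They did so too in genes that were not called, such as DNMT3B. SLITRK2, a synaptic adhesion protein, stood at 6.14, 5.68, 6.83 and 6.21 at day 0 and at 9.25, 8.74 and 9.39 in day 3 replicates 1 to 3. LRRTM1, another leucine-rich synaptic protein, stood at 7.92, 7.81, 7.70 and 6.93, then at 5.13, 5.71 and 5.11. THBS2, a thrombospondin of the matrix, stood at 8.07, 7.93, 7.97 and 7.89, then at 6.50, 6.70 and 6.41. In each the groups were apart, and replicate 2 was the day 3 sample nearest to day 0. SLC24A2, a potassium-dependent sodium-calcium exchanger, stood at 7.17 to 7.29 at day 0 and at 4.91, 5.27 and 5.05 at day 3. ATP10A, a phospholipid flippase, stood at 6.38 to 7.36, then at 5.08, 4.60 and 5.24, and here replicate 2 was the lowest. With all samples SLITRK2 differed by 2.91 ± 0.37 (adjusted p 0.0254), LRRTM1 by -2.28 ± 0.33 (0.0443), SLC24A2 by -2.14 ± 0.27 (0.0254), ATP10A by -2.02 ± 0.28 (0.0347) and THBS2 by -1.43 ± 0.20 (0.0347). All 5 calls were lost without day 0 replicate 1, 2 or 4 or day 3 replicate 1 or 3, each of which left 0 calls, and 2 calls were left without day 0 replicate 3 (those of SLITRK2 and ATP10A). Among 16 other measured members of the same gene families, a list drawn up from these calls, 0 passed limma with or without replicate 2 (1 higher and 2 lower at an unadjusted p under 0.05 with all samples).

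Among named genes called without replicate 2, a further 9 had replicate 2 more than 0.6 of the way along without passing the test with all samples. GDF3, DUSP4, KLF4 and SFRP2 are given with their pathways, and the other 5 were chosen after their values were seen. SOX5, an HMG-box factor of the SOXD group, stood at 5.18 to 6.51 at day 0 and at 7.92, 7.68 and 8.01 in day 3 replicates 1 to 3. MAP3K8, a kinase upstream of ERK, stood at 6.37 to 6.67, then at 8.31, 7.90 and 8.31. The sialidase gene NEU3 stood at 9.07 to 9.29, then at 7.19, 7.89 and 7.85. In these genes the whole day 3 group was apart from day 0. HSD11B2, which inactivates cortisol, stood at 8.03 to 8.43, then at 6.86, 6.95 and 6.45, and BCL2L11, a pro-apoptotic BCL2 family member, at 9.28 to 9.86, then at 7.89, 8.19 and 8.39. With all samples the adjusted p was 0.135 for SOX5, MAP3K8 and BCL2L11, 0.0566 for NEU3 and 0.0793 for HSD11B2, and without replicate 2 they differed by 2.03 (0.018), 1.81 (0.012), -1.35 (0.018), -1.61 (0.0036) and -1.58 (0.00687). Each of the 5 lost the call without replicate 2 when day 3 replicate 1 or 3 was also left out (NEU3 only without replicate 1, HSD11B2 only without replicate 3, up to 0.255 over the 5).

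**Figure D4:**
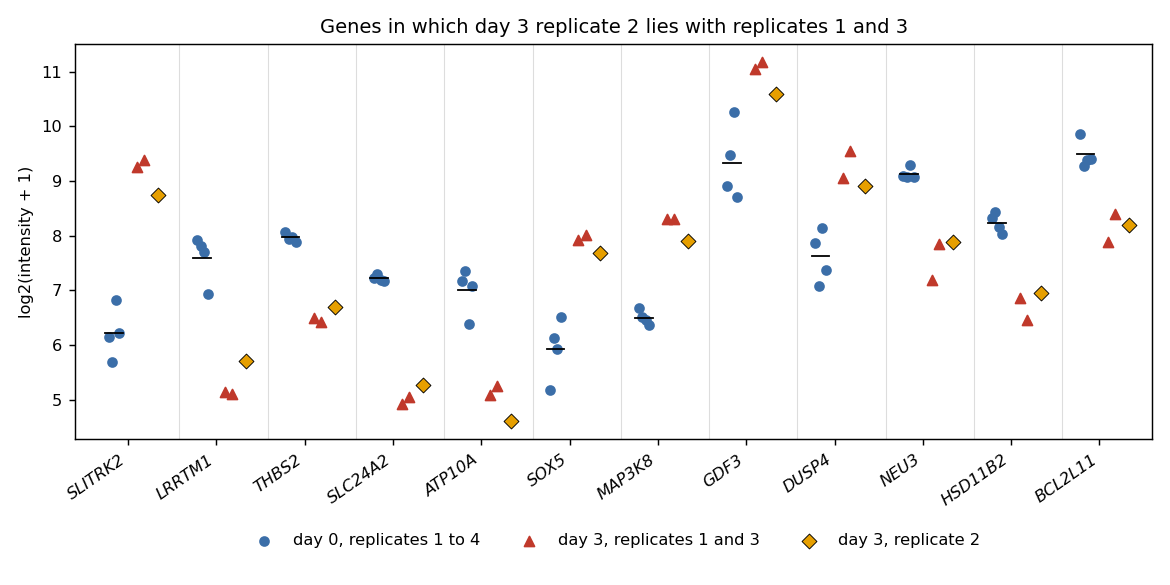
Log2 intensity (y axis) of the 5 genes called with all samples and 7 others in which day 3 replicate 2 had covered more than 0.6 of the way, with circles for day 0, a bar at their mean, triangles for day 3 replicates 1 and 3 and a diamond for day 3 replicate 2. In every gene shown the 3 day 3 values lie on the same side of all 4 day 0 values.

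Markers of other cell types were checked beside these results. Of 15 measured mesoderm genes 1 rose, TBX3 (by 2.77 ± 0.46, adjusted p 0.00645, with 5.44 in replicate 2 against 4.04 to 5.14 at day 0), a T-box factor that endoderm and stem cells can also express. Of 16 neural genes 1 rose, PAX6 (by 2.14 ± 0.47, adjusted p 0.0301), from 3.95 to 4.82 at day 0 to 6.82 and 6.25, with 5.24 in replicate 2. PAX6 was dim at day 0, and with 16 added in place of 1 its difference was 1.57 and did not pass (adjusted p 0.0516). Of 19 trophoblast and amnion genes 1 fell, TFAP2C (by 2.27 ± 0.50, adjusted p 0.0301), from 9.62 to 10.84 to 8.12 and 7.62, with 9.36 in replicate 2. Of 14 fibroblast genes the only call was the fall of THY1. Of 19 later endoderm and yolk sac genes 0 passed limma (2 higher at an unadjusted p under 0.05), and APOA2, an apolipoprotein, had the largest difference (2.16 ± 0.60, adjusted p 0.0828). The summed intensity of the fibroblast list was 13.22 to 13.75 (log2) at day 0, 13.31 and 13.19 in replicates 1 and 3 and 12.47 in replicate 2. The mesoderm sum was 12.72 to 13.04 at day 0 and 13.41, 13.40 and 13.21 in day 3 replicates 1 to 3. The neural sum was 13.10 to 13.66, then 13.76, 12.94 and 13.74, the trophoblast sum 11.38 to 11.87, then 11.77, 11.59 and 11.62, and the later endoderm sum 9.92 to 10.31, then 10.32, 10.38 and 10.46. In a bulk sample, fewer cells of a type and less RNA per cell cannot be told apart. TBX3 lost its call without day 3 replicate 1 or 3 (up to 0.108), and PAX6 and TFAP2C lost theirs in 5 of the 6 further fits (up to 0.301 and 0.316). Of 15 HOX genes 0 passed (1 higher at an unadjusted p under 0.05), while their median in replicate 2 was 1.41 above day 0, against 0.16 and -0.06 in replicates 1 and 3. These genes were mostly dim. Over days 0 and 3, 10 of the 15 had a mean under 6 and the lowest value was -0.46, so such differences depend on the added 1.

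Cell cycle and metabolic genes gave few calls. Of 24 DNA replication genes 0 passed limma (11 lower at an unadjusted p under 0.05, against 7.4% of all probe sets) and the median was -0.56, against -0.03 over all probe sets. MCM5, a subunit of the replicative helicase, differed by -1.03 ± 0.38 (adjusted p 0.212) and stood at 11.32 to 11.98 at day 0 and 10.69, 10.33 and 10.52 in day 3 replicates 1 to 3. ORC1, of the origin recognition complex, differed by -0.98 (adjusted p 0.111). Of 21 mitosis genes 0 passed (0 at an unadjusted p under 0.05), and of 17 G1 cyclins and inhibitors 0 passed (1 higher and 2 lower at an unadjusted p under 0.05). Cyclin E2 (CCNE2) stood at 7.68 to 8.61 at day 0, at 6.52 and 6.54 in replicates 1 and 3, with 9.88 in replicate 2, with an adjusted p of 0.156. Of 14 cholesterol synthesis genes 1 fell, INSIG1, a sterol sensor partner (by 1.52 ± 0.26, adjusted p 0.00833), which stood at 9.50 to 10.16, then at 8.15 and 8.52, with 10.14 in replicate 2. Without replicate 2 the list's median was -0.77, against -0.03 over all probe sets, with 8 of 14 lower at an unadjusted p under 0.05, against 7.4% of all probe sets. By sample the median was -1.02 and -0.63 in replicates 1 and 3 and -0.01 in replicate 2. In glycolysis PDK1, the kinase that holds back pyruvate dehydrogenase, rose by 2.24 ± 0.46 (adjusted p 0.0203) and the aldolase gene ALDOC fell by 1.02 ± 0.25 (0.0468), 2 calls among 18 genes, and the list's median in replicate 2 was -1.10 against -0.16 and -0.06 in replicates 1 and 3. Of 19 immediate early genes IER3, a stress-induced survival gene, rose by 2.57 ± 0.45 (adjusted p 0.00881) and KLF4 fell, and of 15 p53 targets TP53INP1 rose by 1.41 ± 0.30 (0.0259). Of 21 ATF4 and amino acid stress genes 0 passed (1 higher at an unadjusted p under 0.05). Replicate 2 stood at 11.14 for PDK1 and 8.66 for TP53INP1, above their day 0 ranges, and at 10.08 for ALDOC and 10.26 for IER3, inside them. INSIG1 and IER3 lost their call without day 3 replicate 1 or 3 (up to 0.142 and 0.114), and PDK1 (up to 0.189), TP53INP1 (up to 0.217) and ALDOC (up to 0.318) in 3 or more of the 6 fits.

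**Figure D5:**
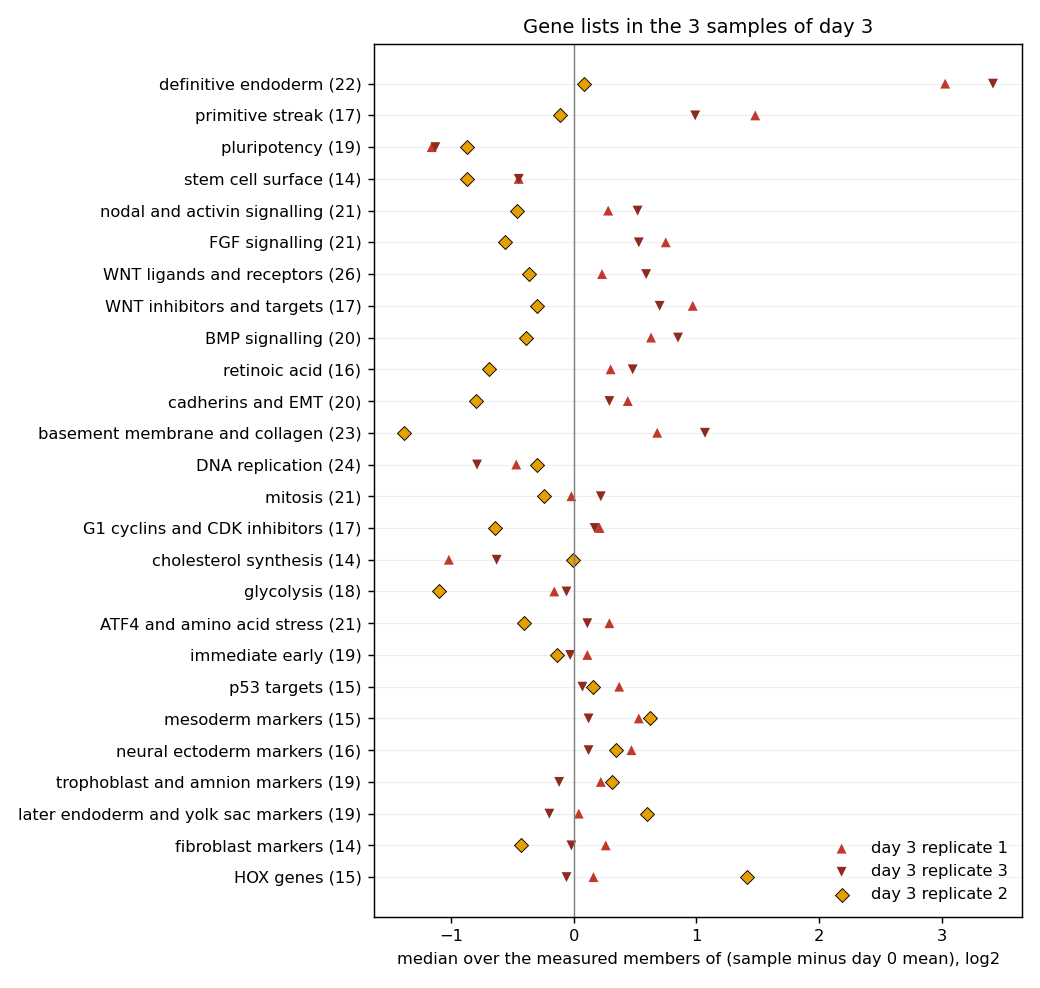
Median log2 difference from the day 0 mean (x axis) over the measured members of each of 26 gene lists (number measured in parentheses), with upward triangles for day 3 replicate 1, downward triangles for replicate 3 and diamonds for replicate 2. Replicates 1 and 3 lie highest for definitive endoderm (3.03 and 3.42), where replicate 2 is at 0.08. Replicate 2 lies lowest for basement membrane and collagen (-1.39) and highest for HOX genes (1.41), of which 10 of 15 have a mean log2 intensity under 6.

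Some of the genes in which replicate 2 lay farthest from all 6 other samples are given as a description. SPARCL1, a secreted matrix glycoprotein, stood at 9.20 in replicate 2 and at 4.80 to 5.71 in the others. PYDC1, a pyrin-domain protein, stood at 8.53 against 2.30 to 5.23. In the other direction E2F2, a cell cycle transcription factor, was at the lowest value of the table (-0.46) in replicate 2 and at 5.81 to 7.90 elsewhere, and CCDC22, a trafficking protein, stood at 1.75 against 7.89 to 8.60. Without replicate 2 PYDC1 fell by 2.11 (adjusted p 0.0252), which shrank to -1.05 (0.072) with 16 added in place of 1.

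Days 1 and 5 place the day 3 values in time. These comparisons share the day 3 samples with the comparison against day 0, so values are set side by side and no overlap is drawn. Day 5 replicate 2 was kept in all day 5 means and tests. Its array weight in limma, which is low for samples far from their group, was 0.1327, against 0.09723 for day 3 replicate 2. These weights come from an estimation that did not converge. No comparison of days 3 and 5 was run without day 5 replicate 2. EOMES, MIXL1 and GSC had reached their level by day 1, with means of 12.21 ± 0.69, 12.50 ± 0.89 and 10.51 ± 0.98 (SD, n = 3) against 12.48, 12.33 and 10.79 over day 3 replicates 1 and 3 (adjusted p of the difference 0.854, 0.93 and 0.865). TBXT had means of 7.16 at day 0, 8.71 ± 0.56 at day 1 and 7.47 over day 3 replicates 1 and 3. Its difference of -1.24 between days 1 and 3 did not pass (adjusted p 0.189). SOX17 was at 7.23 ± 0.72 at day 1 and 11.29 at day 3 (a difference of 4.06, adjusted p 0.00204), and PRDM1 at 6.37 ± 0.70 and 10.91 (4.54, adjusted p 0.000862). GATA4 (4.32, adjusted p 0.00463) and COLEC12 (6.33, 0.000467) also differed between days 1 and 3, while FGF17 did not pass (3.81, 0.0513). THBS2 exceeded its day 0 mean of 7.97 on day 1 (8.92 ± 0.25) and lay under it on day 3 (6.46), a difference of -2.47 between the days (adjusted p 0.000467). Between days 3 and 5, CDH10, a cadherin, APCDD1, a WNT inhibitor of the membrane, and TSPAN7, a tetraspanin, were lower at day 5. The means of CDH10 on days 0, 1, 3 and 5 were 4.81, 5.27, 7.68 and 5.64. APCDD1 had 7.02, 8.91, 9.28 and 7.29, and TSPAN7 9.09, 8.22, 10.46 and 8.77 (adjusted p 0.0342 for each fall after day 3). BMPER and the complement gene C5 were higher at day 5, with 5.05, 5.10, 7.68 and 9.70 for BMPER and 4.32, 4.85, 5.85 and 8.13 for C5 (0.0342 each). LRAT was lowest at day 3, with 11.43, 11.16, 7.54 and 9.72 (0.0342 for the difference after day 3). CD48 and MFAP4 were higher at day 3 (11.33 and 13.19) than at day 5 (8.28 ± 1.25 and 10.86 ± 0.64), but those differences did not pass (0.204 and 0.0851). CDH10, APCDD1, TSPAN7 and C5 were chosen after their values were seen. The day 3 means leave out replicate 2, which stood at 5.55 for CDH10, 5.89 for APCDD1, 9.10 for TSPAN7 and 4.79 for C5. Its inclusion left 6 calls (0.0324%) between days 1 and 3 (505 without it, 2.73%) and 18 (0.0973%) between days 3 and 5 (29 without it, 0.157%).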

How the data were processed

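The deposited values, from the series' value table, are linear intensities of 18495 probe sets on 16 Human Exon 1.0 ST arrays (-0.273 to 30307.1, 636 below 0, array medians 245.1 to 246.3). The authors' build was hg18, per the submitters' processing notes, and how they summarised and normalized the probe values is not given in the sources used here. Technical arrays were averaged after log2(intensity + 1). limma 3.58.1 (R 4.3.3) fitted all 4 groups by group, and p-values were Benjamini-Hochberg adjusted over all probe sets at a threshold of 0.05. The number of arrays limits the precision. The code was tested on simulated data. Of the probe sets 14577 carry 1 symbol in the platform annotation, 2849 several and 1069 none. Only probe sets with 1 symbol were named, the brightest per gene. Of 564 genes in 27 lists, 466 had such a probe set.

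Named genes were a fixed set of markers, all genes called with all samples, the 12 largest rises and falls without day 3 replicate 2 whose groups did not overlap, up to 4 called members per list (2 with the largest difference where none passed), and genes in which replicate 2 lay farthest from the other samples. A selection is given, and genes outside the rule are said to be chosen after their values were seen. Members and lists were chosen with earlier results of these data known. Promoters are from RefSeq (GRCh38.p14). Alternatives covered technical arrays, replicate block, samples in the fit, normalization, filter, eBayes settings, array weights, pseudocount, threshold, probe sets per gene and each sample left out. Tables and figures used Python 3.11.15 with pandas 2.3.3, numpy 2.4.6 and matplotlib 3.10.9.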

Additional observations from a re-analysis of the deposited data

Results flagged for a closer look

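For 89 named genes, the gap of a day 0 sample to the nearest of the other 3 was divided by the range of the 4 values. In 7 genes this ratio exceeded Dixon's critical value for 4 values. Chance gives such a ratio in about 1 of 20 groups. FN1 in day 0 replicate 4 was highest at 12.37, with the others at 10.75 to 10.79. COL5A2 was also highest in replicate 4, at 10.45 against 8.99 to 9.23. NMI was highest in replicate 2 at 7.86 (others 7.14 to 7.25), and NEU3 in replicate 3 at 9.29 (others 9.07 to 9.10). KLF4 was highest in replicate 1 at 7.40 (others 6.75 to 6.86), and THY1 lowest there at 11.65 (others 11.99 to 12.04). DNMT3B was lowest in replicate 3 at 13.04 (others 13.37 to 13.43).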

How the results depend on the processing

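The count of 5 with all samples became 3 with the second technical array, 1 with the replicate block, 0 in a fit of only day 0 and day 3, 1 with a variance trend and robust eBayes, 8 with a pseudocount of 16 and 0 at an adjusted p under 0.01. Array weights gave 2800 (1273 higher, 1527 lower), but their estimation did not converge. Leaving out 1 sample gave 0 to 590, the latter without day 3 replicate 2. Without that sample, and in fits chosen after seeing the data, the count of 590 became 894 in the fit of 2 groups, 1057 when day 5 replicate 2 was also left out, 233 at an adjusted p under 0.01 and 133 to 489 when a further sample of day 0 or day 3 was left out. The cause was not tested. Deviations of same-numbered day 0 and day 3 samples correlated at 0.208, -0.060 and -0.174, and those of other numbers at -0.245 to 0.239. Each deviation was taken from a mean of 3 samples, replicate 2 included at day 3, so these values cannot decide on pairing. The numbers were not taken as pairs. With the replicate block and without replicate 2, 594 passed, 473 of them among the 590, and 68 of 76 named genes kept their call. Of those 76, 27 kept it in all 6 fits that left out a further sample, 71 in the fit of 2 groups and 72 with a pseudocount of 16. Directions that turned were of differences that had not passed with all samples. With array weights they were TBXT (0.26) and SPARCL1 (-0.47), and with a pseudocount of 16 PYDC1 (0.32). Leaving out each sample in turn gave ranges of -0.98 to 0.31 for TBXT, -0.80 to 0.07 for LIN28A, -3.71 to 0.16 for E2F2 and -0.56 to 1.64 for SPARCL1, in each of which the other sign came only without day 3 replicate 2. The ranges were -0.17 to 1.51 for FN1, -1.61 to 0.07 for CCNE2, -2.11 to 1.01 for PYDC1 and -0.10 to 1.45 for CDH2, in which the sign turned without day 3 replicate 1 or 3 (CDH2 only without replicate 3).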
